A study of Mus musculus with 8 samples.

Results

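Enteroendocrine cells are the hormone-secreting cells scattered through the epithelium of the gut, and 10 genes that mark them were followed here across 8 mouse colon tumor samples. The genes were chosen by symbol: the hormone precursors Pyy, Gcg, Sst, Cck and Tac1, the granins Chga and Chgb, the calcium sensor Scgn and the transcription factors Insm1 and Neurod1. All 10 were on the array, with 14 probes among 25697, and 12 of these probes, for 9 genes, were detected on at least 4 arrays and tested. Neurod1 was detected on no array and 1 of the 3 Scgn probes on only 2.

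Total RNA of each tumor was hybridised to an Illumina BeadChip, on which a probe's intensity stands for the abundance of its transcript. All 8 samples came from mice 8 months old, of mixed C57BL/6J-FVBN strain, that carried 1 Apc min allele (APCmin/+), a truncating mutation of the tumor suppressor Apc. The VP16 group (replicates 1 to 4) carried a transgene for the viral activation domain VP16, and is the control. The VP16LXRa group (replicates 5 to 8) carried a fusion of VP16 with LXRα (liver X receptor alpha), a sterol-sensing nuclear receptor that the fusion renders active without ligand. The labels do not name the promoter that drives either transgene, and do not say whether each tumor came from its own mouse, so a p-value here covers no more than the spread among these samples, which may be technical. With 4 arrays a group, precision is limited. In total RNA of whole tumors, fewer enteroendocrine cells and less RNA per cell cannot be told apart.

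Enteroendocrine cells arise from crypt progenitors that switch on Neurog3 and then Neurod1 and Insm1. They store peptide hormones with granins in dense-core granules and release them on contact with nutrients or bacterial products. In the colon the L cells make glucagon-like peptides from the Gcg precursor together with peptide YY and insulin-like peptide 5, the enterochromaffin cells make serotonin and often the Tac1 product substance P, and the D cells make somatostatin. Tac1, Sst, Cck and the granin genes are also expressed in neurons, including those of the gut wall.

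The promoters of 5 of the genes are shown, those of 4 genes that varied widely between tumors and that of Pyy, the tested member that varied least. Each line gives the 250 bases before the transcription start from the RefSeq table of build GRCm38.p6, 5′ to 3′ on the strand of the gene, and 9 of the 10 genes had an entry. Capitals mark TGACGT, the core of the cyclic AMP response element, CATCTG, an E-box of the kind that NeuroD factors bind, and TATAAA, on either strand.
Sst (chr16:23890845-23891094, minus strand): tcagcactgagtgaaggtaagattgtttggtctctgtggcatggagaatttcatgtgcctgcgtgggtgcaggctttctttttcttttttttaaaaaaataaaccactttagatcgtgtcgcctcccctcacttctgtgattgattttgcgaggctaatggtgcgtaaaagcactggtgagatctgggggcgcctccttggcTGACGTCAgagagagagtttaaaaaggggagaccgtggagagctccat
Chgb (chr2:132781392-132781641, plus strand): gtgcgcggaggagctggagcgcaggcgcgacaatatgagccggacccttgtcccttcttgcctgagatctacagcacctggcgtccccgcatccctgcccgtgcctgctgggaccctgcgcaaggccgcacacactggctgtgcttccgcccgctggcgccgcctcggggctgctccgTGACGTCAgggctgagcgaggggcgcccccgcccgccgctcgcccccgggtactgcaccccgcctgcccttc
Chga (chr12:102554691-102554940, plus strand): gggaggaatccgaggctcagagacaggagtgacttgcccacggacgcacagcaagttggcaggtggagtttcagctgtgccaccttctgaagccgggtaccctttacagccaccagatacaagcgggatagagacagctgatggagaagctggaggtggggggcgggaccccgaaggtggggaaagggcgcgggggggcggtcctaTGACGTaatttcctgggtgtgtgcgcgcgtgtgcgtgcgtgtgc
Gcg (chr2:62483654-62483903, minus strand): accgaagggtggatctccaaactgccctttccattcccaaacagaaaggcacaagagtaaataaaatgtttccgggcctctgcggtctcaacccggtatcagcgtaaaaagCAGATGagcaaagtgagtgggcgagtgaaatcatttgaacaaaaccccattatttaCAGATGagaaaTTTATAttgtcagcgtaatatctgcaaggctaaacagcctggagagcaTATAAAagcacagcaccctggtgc
Pyy (chr11:102107833-102108082, minus strand): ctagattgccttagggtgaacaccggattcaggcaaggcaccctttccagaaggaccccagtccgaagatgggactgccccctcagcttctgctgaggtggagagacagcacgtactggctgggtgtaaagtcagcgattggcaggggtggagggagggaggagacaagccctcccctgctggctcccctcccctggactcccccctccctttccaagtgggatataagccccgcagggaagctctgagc
Sst and Chgb held the full palindrome TGACGTCA, which contains TGACGT on both strands, starting 48 and 72 bases before the start. The palindrome was found in 1.62% of 27025 mouse promoters of this length. Chga held TGACGT alone, 44 bases before the start, and 6.56% of promoters held that motif. Gcg had 2 matches to CATCTG, starting 139 and 83 bases before the start, and Tac1 and Cck had 1 each, against 14.5% of promoters with any. TATAAA, present in 13.0% of promoters, was matched in Gcg only among the members, starting 24 bases before the start and, on the other strand, 72. In the Pyy window none of these letters was found. A direct repeat of AGGTCA with 4 bases between, an arrangement that LXR binds, was in none of the 9 windows and in 0.0111% of all promoters. A match is a description of the letters and does not show that a factor binds there.

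VP16 replicate 1 and VP16LXRa replicate 5 stood apart from the other 6 on the first principal component, which held 55.4% of the variance, and correlated with each other at 0.95 over probes. Their Wnt target score was 1.65 and 2.07, against -0.98 to -0.04 on the other arrays, and their colonocyte marker score was -0.95 and -3.80, against 0.60 to 1.01. A score is the mean of a list's log2 intensities after each gene is centred over the 8 arrays. Signal was not short on VP16LXRa replicate 5: it had 11890 detected probes, within the 11469 to 12257 of all arrays. It was the lowest of the 8 arrays for 24.7% of all 9110 genes tested and the highest for 25.7%. Differences of the members are given with and without these arrays. Several list medians are also given without VP16LXRa replicate 5 and without both. With VP16LXRa replicate 5 alone left out, VP16 replicate 1 stays in the control group and shifts the differences.

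The clearest feature of the enteroendocrine genes was VP16LXRa replicate 5, in which every member but Pyy was not detected. A probe counts as detected with a detection p-value under 0.01. In that tumor 1 of 14 member probes was detected, against 9 to 13 on each of the 6 arrays that clustered together and 8 on VP16 replicate 1. For 4 genes, Tac1, Chga, Chgb and Gcg, it was the only tumor without detection. It also had the smallest value of Sst, Scgn, Insm1 and Cck, but these were not detected in 1 or 2 other tumors either, and values below detection have no order. VP16LXRa replicate 6 was the highest for 4 of them, Scgn, Chga, Chgb and Gcg. The defining endocrine markers Chga and Chgb were detected on 7 of the 8 arrays and Insm1 on 6, while Neurod1 was detected on none. Probes detected on no array averaged 4.56 on the log2 intensity scale used throughout, with 95% of their values below 5.00, so values near this level have no order.

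Pyy encodes peptide YY, which slows gut transit and signals satiety, and was the exception. Its log2 intensity was 12.52, 12.03, 12.25 and 11.44 in VP16 replicates 1 to 4. In VP16LXRa replicates 5 to 8 it was 12.25, 12.24, 11.61 and 11.48. The groups overlapped throughout, and both tumors that stood apart were among the 3 highest. The whole range over the 8 tumors was 1.08, a 2.11-fold span, and 62.3% of tested probes had a smaller SD over the 8 arrays. VP16 tumors averaged 12.06 ± 0.46 (SD, n = 4) and VP16LXRa tumors 11.90 ± 0.41, and the log2 difference was -0.17, with a 95% interval from -0.82 to 0.49.

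Gcg, the precursor of the glucagon-like peptides and a companion of Pyy in L cells, varied most. It stood at 6.78, 9.72, 10.56 and 11.15 in VP16 replicates 1 to 4. It stood at 4.50, 11.35, 9.15 and 9.57 in VP16LXRa replicates 5 to 8, of which the value of replicate 5 was not above background. The span from VP16LXRa replicate 5 to VP16LXRa replicate 6 was 6.85 log2 units, with the lower end at background, and 99.6% of tested probes had a smaller SD over the 8 arrays. Each group held both a low and a high tumor. The log2 difference between groups was -0.91 (SE 1.48), within an interval from -4.28 to 2.46.

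Sst, the precursor of somatostatin, which restrains the release of other gut hormones, had values of 5.26, 8.80, 9.60 and 6.68 in VP16 replicates 1 to 4. In VP16LXRa replicates 5 to 8 it had 4.44, 8.57, 7.46 and 8.81. It was not detected in VP16 replicate 1 or VP16LXRa replicate 5, and VP16 replicate 4, among the highest for Gcg, was among the 3 lowest for Sst. The log2 difference was -0.26 (SE 1.19).

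Cck, the precursor of cholecystokinin, which empties the gallbladder and is made mainly by cells of the small intestine, was dim. Its values were 4.44, 5.81, 5.99 and 6.57 in VP16 replicates 1 to 4 and 4.42, 5.78, 4.69 and 6.12 in VP16LXRa replicates 5 to 8. Detection was reached in 3 VP16 and 2 VP16LXRa tumors, and the log2 difference was -0.45 (SE 0.53). Tac1, the precursor of substance P and neurokinin A, peptides that stimulate gut motility, stood at 7.08, 7.98, 8.27 and 6.89 in VP16 replicates 1 to 4. It stood at 5.09, 7.77, 6.45 and 7.49 in VP16LXRa replicates 5 to 8, a log2 difference of -0.85 (SE 0.60). Every VP16LXRa tumor but replicate 5 and replicate 7 lay within the VP16 range.

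The granins are acidic proteins that pack hormones into granules and serve as general markers of endocrine cells. Chgb stood at 8.73, 8.96, 9.27 and 9.60 in VP16 replicates 1 to 4. In VP16LXRa replicates 5 to 8 it stood at 4.82, 9.99, 8.67 and 8.56, so that the VP16LXRa group held both the lowest and the highest tumor. The means were 9.14 ± 0.38 and 8.01 ± 2.22 (SD, n = 4), a log2 difference of -1.13 (SE 0.96), the most negative among the members at their brightest probes. Chga stood at 6.82, 7.16, 7.30 and 7.47 in VP16 and at 5.00, 8.15, 6.86 and 6.89 in VP16LXRa tumors. Its log2 difference was -0.47 (SE 0.57). Its other probes gave -0.95 (SE 0.56) and -0.62 (SE 0.54), and all 3 had VP16LXRa replicate 5 lowest and not detected and VP16LXRa replicate 6 highest. VP16 replicate 1 was the lowest VP16 tumor for Chgb and for 2 of the 3 Chga probes, and both genes were detected there.

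Scgn, which encodes secretagogin, a calcium-binding protein of endocrine cells, stood at 5.24, 6.41, 6.37 and 6.05 in VP16 and at 4.50, 6.61, 5.64 and 4.84 in VP16LXRa tumors. The log2 difference was -0.62 (SE 0.47) at this probe and -0.32 (SE 0.30) at the other tested probe. The remaining probe, detected only in VP16 replicates 2 and 3, averaged 5.34 in VP16 and 4.59 in VP16LXRa tumors and was not tested. Insm1, a zinc-finger repressor needed for endocrine differentiation, stood at 5.37, 6.25, 5.45 and 6.83 in VP16 and at 4.61, 6.52, 5.47 and 4.90 in VP16LXRa tumors. Its log2 difference was -0.60 (SE 0.47), and detection was reached in all 4 VP16 tumors but only 2 VP16LXRa tumors. Neurod1, the factor that follows Neurog3, gave values of 4.41 to 4.79 on all 8 arrays, not above background on any, so no level can be compared.

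**Figure D1:**
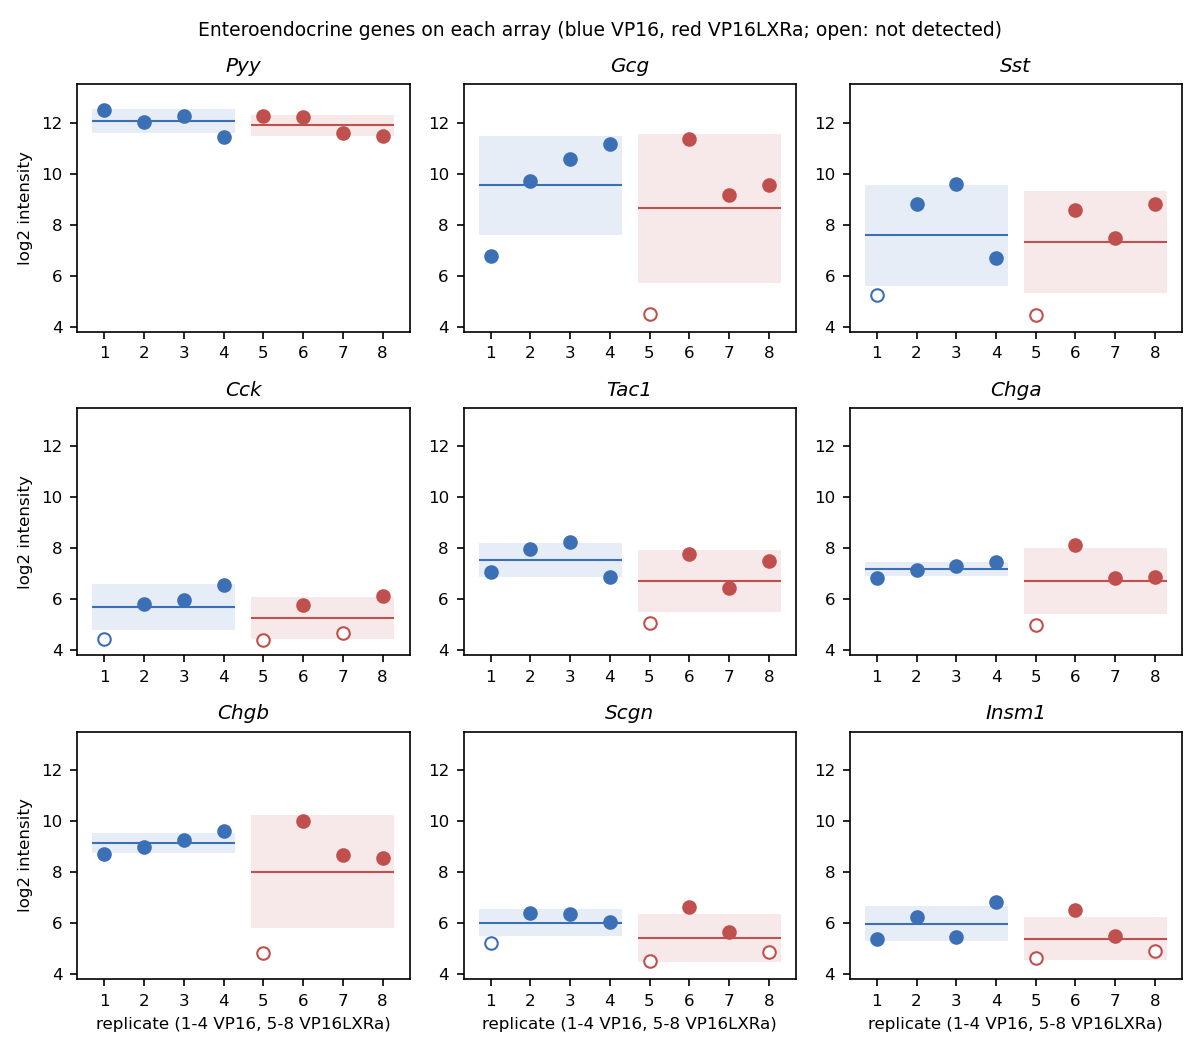
Log2 intensity (y axis, a log scale) of the 9 tested enteroendocrine genes at their brightest probe on each array (x axis, replicate); points are tumors, open where not detected, lines are group means and bands are 1 SD (n = 4). VP16LXRa replicate 5 is not detected in any panel but that of Pyy, where it stands at 12.25.

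The group comparison asked whether an active LXRα alters these genes in colon tumors. All 9 tested genes had negative differences, VP16LXRa minus VP16, from -1.13 for Chgb to -0.17 for Pyy, with a median of -0.60 beside 0.01 over all 9110 genes. Differences below 0 were found for 49.6% of all 11875 probes. None of the 12 tested member probes passed limma's test with Benjamini-Hochberg adjustment over all probes (adjusted p = 0.9999 for each), and 0.00842% of all probes did. Unadjusted, the member probes had p from 0.128 to 0.830 in limma and from 0.143 to 0.800 in two-sided exact permutation tests of 4 against 4 arrays, whose smallest possible p is 0.0286. None was under 0.05, against 1.68% of all probes in limma. The groups overlapped at all 12 member probes, and 1.28% of all probes had groups without overlap, 0.64% with every VP16LXRa tumor lower. The genes were measured on the same arrays, so their signs are not independent of each other.

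The signs depended on which arrays were included. Without VP16LXRa replicate 5 the median difference was -0.17 and 6 of 9 genes were negative. Sst was then at 0.70 (SE 0.99), Gcg at 0.47 (SE 1.03) and Chga at 0.11 (SE 0.34). Chgb was then at -0.07 (SE 0.38), and Pyy at -0.28 (SE 0.30). Without VP16 replicate 1, where Gcg, Sst and Cck were low, the median was -0.88 and Gcg was at -1.83. Without VP16 replicate 4 or VP16LXRa replicate 6 it was -0.38 or -0.98. Without both arrays that stood apart all 9 were negative again, with a median of -0.45, Cck at -0.59 (SE 0.39), Scgn at -0.58 (SE 0.42), Insm1 at -0.54 (SE 0.49) and Chga at -0.01 (SE 0.36). No member passed in these fits either (limma adjusted p = 0.9998 for each without both arrays).

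**Figure D2:**
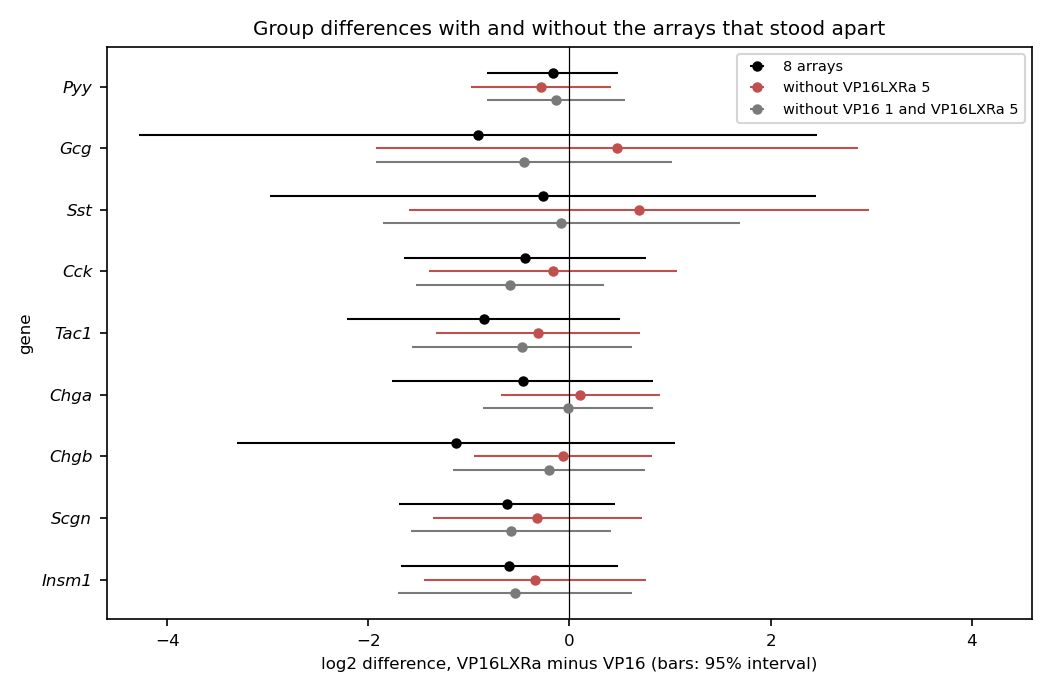
Log2 difference between VP16LXRa and VP16 tumors (x axis, a log scale) for each tested enteroendocrine gene (y axis), with 95% intervals from limma, over 8 arrays, without VP16LXRa replicate 5, and without VP16 replicate 1 and VP16LXRa replicate 5. All intervals include 0, and Gcg moves from -0.91 to 0.47 when VP16LXRa replicate 5 is left out.

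Over the 6 arrays that clustered together the members did not all vary alike. Gcg, Chga and Chgb followed each other: Pearson's r was 0.97 between Chga and Chgb (Spearman's rho 0.94; two-sided exact permutation p = 0.00278 and 0.0167), 0.96 between Chgb and Gcg (rho 0.94; p = 0.00694 and 0.0167) and 0.90 between Chga and Gcg (rho 1; p = 0.00417 and 0.00278). With the 2 farthest arrays left out these r were 0.997, 0.997 and 0.93. Farthest means from the median of only 1 gene of the pair, so the arrays left out differ between pairs. Only 4 arrays then remain, too few for such an r to show that a relation is stable. Between Sst and Tac1 r was 0.87 (rho 0.77, exact permutation p = 0.0264 and 0.103), and 0.74 with the 2 farthest arrays left out. Pyy had r = 0.78 with Tac1 (rho 0.77), 0.77 with Scgn (rho 0.66) and 0.70 with Sst (rho 0.60). With the 2 farthest arrays left out these r of Pyy were 0.78, 0.89 and 0.55. Sst had r = -0.11 with Chgb and -0.09 with Gcg, the latter 0.92 with the 2 farthest arrays left out, and Pyy had r = 0.36 with Gcg. After adjustment over the 36 pairs none passed (smallest adjusted p = 0.075). Between members no r is given over all 8 arrays, which fall into separate clusters.

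**Figure D3:**
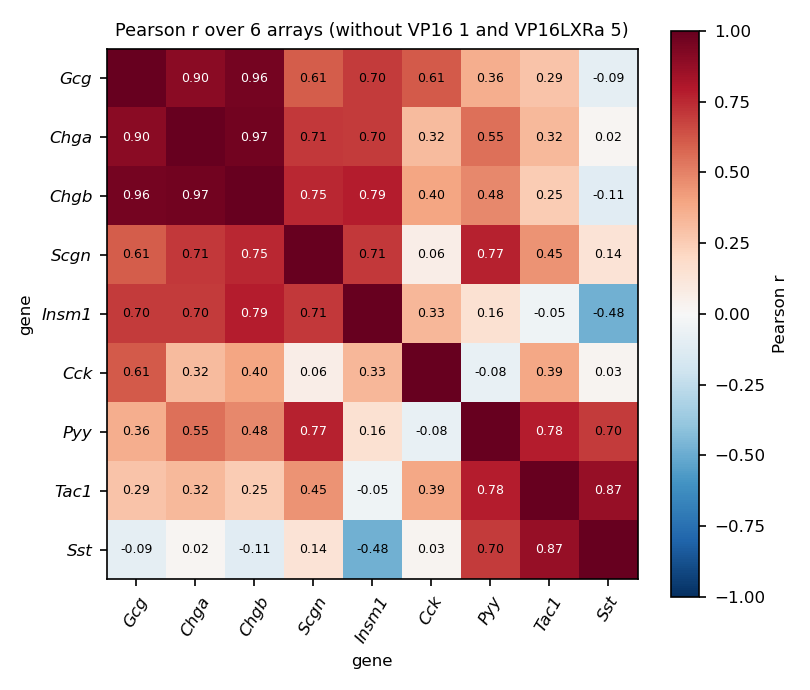
Pearson's r (colour and printed value) between tested enteroendocrine genes over 6 arrays, without VP16 replicate 1 and VP16LXRa replicate 5; rows and columns are genes. Gcg, Chga and Chgb form a block with r of 0.90 to 0.97. Sst and Tac1 have r of 0.87, and Pyy has r of 0.78 with Tac1 and 0.70 with Sst.

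VP16 replicate 4 was the tumor in which these genes parted. It ranked highest of the 8 for Insm1 and Cck and next to highest for Gcg, Chgb and the brightest Chga probe, but among the 3 lowest for Sst and Tac1 and lowest for Pyy. The enteric neuron list was low there too, with a score of -1.13, as were smooth muscle markers (-1.76). The neuropeptide gene Vip stood at 6.42, 9.62, 9.34 and 6.37 in VP16 replicates 1 to 4 and at 4.38, 9.25, 8.16 and 8.35 in VP16LXRa replicates 5 to 8. Calb2, a calcium-binding protein of enteric neurons, stood at 5.09, 8.97, 9.19 and 5.54 in VP16 and at 4.64, 8.88, 7.64 and 7.78 in VP16LXRa tumors. Both were low in the same 3 tumors as Sst. Over the 6 arrays Sst had r = 0.92 with the neuron score (rho 0.83, exact permutation p = 0.00833 and 0.0583). This r was 0.51 with the 2 farthest arrays left out, here those farthest from the member's median, which leaves 4. Sst had r = 0.93 with the smooth muscle score (rho 1; exact permutation p = 0.00139 and 0.00278; r = 0.96 with the 2 farthest arrays left out). With the neuron score Pyy had r = 0.80 (rho 0.89, exact permutation p = 0.0389 and 0.0333), and 0.76 with the 2 farthest arrays left out. Tac1 had r = 0.76 with that score (rho 0.94). The remaining members had r with the neuron score of 0.29 (Scgn), 0.08 (Chga), -0.09 (Chgb), -0.18 (Gcg), -0.28 (Cck) and -0.37 (Insm1). The likeness was not particular to the neuron list. With the colonocyte score r was 0.78 for Sst (rho 0.89), 0.50 for Tac1 and 0.20 for Pyy. With the goblet cell score it was 0.77, 0.47 and 0.60 in that order. With the smooth muscle score it was 0.66 for Tac1 and 0.61 for Pyy. Of 54 such relations between a member and a list none passed after adjustment (smallest adjusted p = 0.075). The part of neurons, muscle or any other cell type in the Sst, Tac1 and Pyy values was not tested.

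**Figure D4:**
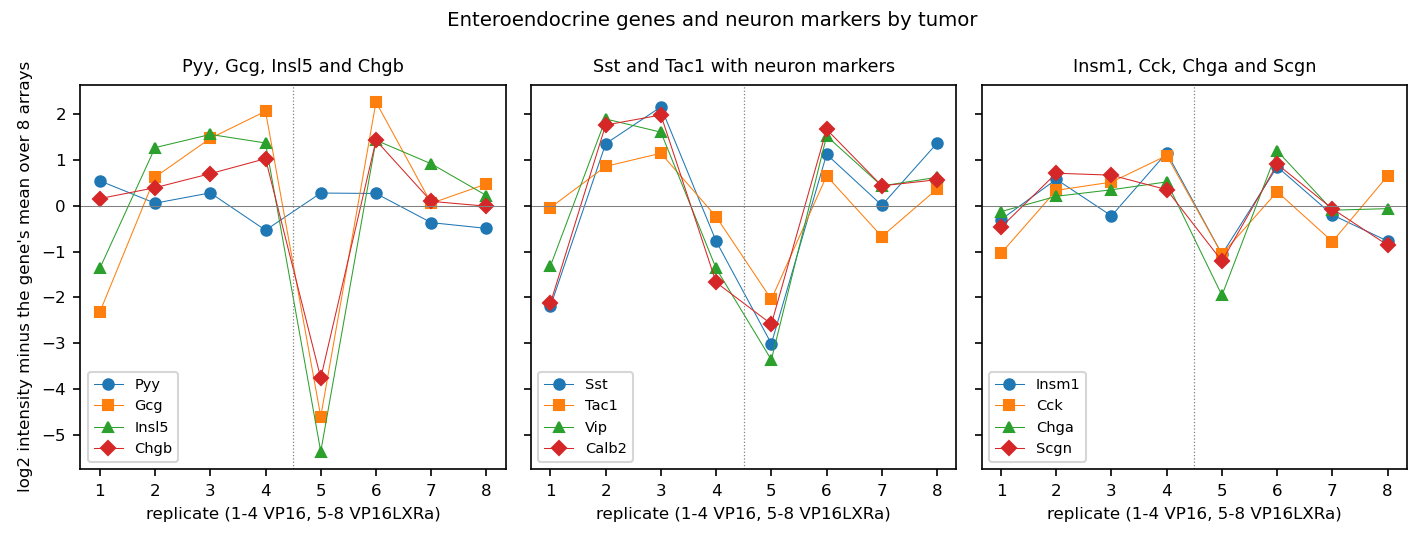
Log2 intensity of 12 genes on each array (x axis, replicate), centred on the gene's mean over the 8 arrays (y axis, a log scale); thin lines only join the points of a gene. Pyy stays within 1.08 log2 units while Gcg, Insl5 and Chgb drop out in VP16LXRa replicate 5. Sst is low with the neuron markers Vip and Calb2 in VP16 replicate 4. Tac1 is near its mean there (6.89 against 7.13) and lower in VP16LXRa replicate 7 (6.45).

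Of 21 enteric neuron markers 7 were tested, and Elavl3, Elavl4, Tubb3, Nos1, Snap25, Hand2, Nefl and Npy were among those detected on no array. None passed, 2 were higher and 5 lower, and the median log2 difference was -0.11. They were Vip at -0.40 (SE 1.18), Stmn2 at -0.37 (SE 0.70), Stmn3 at -0.18 (SE 0.42), Gap43 at -0.11 (SE 0.50), Uchl1 at -0.08 (SE 0.70), Calb2 at 0.04 (SE 1.20) and Cartpt at 0.48 (SE 0.37). Their summed intensity ranged over log2 values of 8.16 to 10.87 in VP16 and 7.48 to 10.61 in VP16LXRa tumors. Without VP16LXRa replicate 5 none of the 7 was lower. Without both arrays that stood apart 3 were lower, with a median of 0.15.

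Other tested hormone and amine genes of the gut were lowest in VP16LXRa replicate 5, as Gcg was and Pyy was not, with Gal as the exception. Gal stood at 5.63 there and was lowest in VP16 replicate 4, at 4.42. Sct, Ddc and Gal were detected in VP16LXRa replicate 5, where Gcg was not. Insl5, the precursor of insulin-like peptide 5 of colonic L cells, stood at 8.40, 11.03, 11.32 and 11.13 in VP16 replicates 1 to 4. In VP16LXRa replicates 5 to 8 it stood at 4.41, 11.19, 10.68 and 9.99, not above background in replicate 5. Sct, the secretin precursor, was low in the same tumors, at 7.17 in VP16 replicate 1 and 7.05 in VP16LXRa replicate 5 against 9.29 to 10.40 elsewhere. Ppy, which encodes pancreatic polypeptide, a relative of peptide YY, stood at 4.83 in VP16LXRa replicate 5 and between 7.12 and 8.76 elsewhere. Tph1, the enzyme of serotonin synthesis in enterochromaffin cells, stood at 4.87 there and between 5.75 and 7.01 elsewhere. Of the 6 genes tested in this list of 12, none passed, 1 was higher and 5 were lower. Their log2 differences were -1.40 (SE 1.45) for Insl5, -0.97 (SE 0.55) for Ddc, the decarboxylase that makes serotonin, -0.65 (SE 0.77) for Ppy, -0.42 (SE 0.81) for Sct, -0.04 (SE 0.43) for Tph1 and 0.09 (SE 0.93) for the neuropeptide gene Gal. The median of -0.54 became 0.17 without VP16LXRa replicate 5 and -0.18 without both arrays that stood apart. Gip, Nts, Iapp and Ucn3 were detected on no array.

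Among 18 endocrine transcription factors 6 were tested and none passed, with 3 higher, 3 lower and a median of -0.12. Neurog3, the factor that starts the endocrine programme, stood at 4.87, 6.25, 6.48 and 7.27 in VP16 and at 4.68, 6.74, 5.60 and 5.54 in VP16LXRa tumors, a log2 difference of -0.58 (SE 0.56). It was detected in 3 of 4 tumors of each group, all but VP16 replicate 1 and VP16LXRa replicate 5. Nkx2-2, which acts after it, differed by -0.48 (SE 0.37), and Foxa1 by -0.31 (SE 0.23). Isl1, a LIM-homeodomain factor of several endocrine cell types, ran the other way, at 9.92 in VP16 replicate 1 and 9.30 in VP16LXRa replicate 5 against 6.23 to 7.43 elsewhere. Isl1 was named after its values were seen.

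Of 26 genes for prohormone processing and granule release 11 were tested, 6 higher and 5 lower. Their median log2 difference was 0.01, 0.36 without VP16LXRa replicate 5 and 0.18 without both arrays that stood apart. The 3 with the smallest p were Scg3, a granin that sorts cargo to granules (-0.43, SE 0.42), Scg2, the secretogranin II gene (-0.58, SE 0.79), and Rab27a, a small GTPase of granule docking (-0.43, SE 0.76). The prohormone convertase gene Pcsk1 was detected on no array. Of 16 nutrient and bile acid sensors 4 were tested. Their median was -0.31, 0.16 without VP16LXRa replicate 5 and -0.16 without both arrays that stood apart. They included Ffar2, the receptor for short-chain fatty acids (-0.82, SE 0.99), which stood at 8.72 in VP16 replicate 1 and 6.38 in VP16LXRa replicate 5 against 10.04 to 10.96 elsewhere. Gpr120, the receptor for long-chain fatty acids, now named Ffar4, differed by -0.24 (SE 0.49), and Gnat3, a taste G protein, by -0.38 (SE 0.46). The bile acid receptor gene Gpbar1 and Gpr119 were detected on no array. No gene of either list passed.

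Lists of several cell types, epithelial and not, lay outside the range of the other arrays in VP16LXRa replicate 5, and some also in VP16 replicate 1. The members themselves scored -0.65 (VP16 replicate 1) and -2.05 (VP16LXRa replicate 5). In the same order the smooth muscle score was -0.94 and -2.20, against -1.76 to 1.51 elsewhere. The enteric neuron score was -0.88 and -1.62, against -1.13 to 1.15. VP16 replicate 1 thus lay within the range of the other arrays for these lists. The neutrophil score was 1.88 and 2.39, against -1.15 to -0.26. Of 12 colonocyte markers all 10 on the array were tested, with 2 higher and 8 lower, a median of -0.51 and none passed. Without VP16LXRa replicate 5 the median was 0.44 and none of these markers was lower. Without both arrays that stood apart the median was 0.12 and 4 of these markers were lower. Their summed log2 level was 14.36 in VP16 replicate 1, 11.87 in VP16LXRa replicate 5 and 16.01 to 16.32 elsewhere. The 3 with the smallest p were Guca2b (0.21, SE 0.19), Krt20 (-1.67, SE 1.63) and Aqp8 (-1.55, SE 1.89). The 6 goblet cell markers on the array were at 14.95, 13.32 and 15.56 to 16.89 in the same order. Their median difference was -0.05, 0.69 without VP16LXRa replicate 5 and 0.37 without both arrays that stood apart. They included Clca3 (-1.88, SE 2.29), Agr2 (-0.32, SE 0.73) and Spdef (0.23, SE 0.80). Wnt targets went the opposite way, with summed log2 levels of 12.31 and 12.63 against 9.72 to 10.41. Of 12 such genes 7 were tested. Their median was 0.32, -0.10 without VP16LXRa replicate 5 and 0.32 without both arrays that stood apart. They included Tcf7 (0.46, SE 0.34), Wif1 (1.14, SE 1.38) and Sp5 (1.02, SE 1.38). The part of any of these cell types in the members' low values was not tested.

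The genes most like the members were sought among 8027 named genes by Pearson's r with the mean of the 9 centred members over all 8 arrays, used only to rank them, since the 8 arrays fall into separate clusters. The 10 closest included Tle6 (r = 0.99), Tspan3 (0.99), Nucb1 (0.99), Tgoln1 (0.98), D10Bwg1379e (0.98), Tmem59 (0.98), Car2 (0.98), Tmem38b (0.98) and Sbds (0.97). Over the 6 arrays the r of Tle6 was 0.95, that of D10Bwg1379e 0.95 and that of Sbds 0.88. Of the 10 closest genes over 8 arrays 2, Tle6 and D10Bwg1379e, were among the 10 closest over 6 arrays, and 5 among the 10 closest after centring within groups. Zyx, closest over 6 arrays (r = 0.99), had r = -0.72 over 8.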

How the data were processed

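The deposited table holds, per the file headers, a summary signal for each probe and array, which is a linear intensity not yet normalized, and its detection p-value. GenomeStudio is named in the submitters' processing notes, with no version. A second deposited table holds intensities processed by the authors in steps that no header names, used as an alternative only. Groups follow the labelled genotype (4 arrays each).

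Background was removed by normexp, whose parameters came from the detection p-values, and an offset of 16, quantile normalization and log2 followed (limma 3.58.1, R 4.3.3). The offset shrinks folds of dim probes. Probes detected on at least 4 arrays were kept. Differences were fitted with lmFit and eBayes over all kept probes, two-sided, with Benjamini-Hochberg adjustment and a threshold of 0.05. A gene is given at its brightest kept probe. The fit was tested on simulated data.

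The members and lists were chosen with earlier results of these data known. Named were all members, all tested hormone and neuron genes, the 3 genes of each other list with the smallest p where the list is discussed, and the 10 genes most like the members. Alternatives were other backgrounds, normalizations, offsets, filters and variance models, array weights, the mean of a gene's probes, and left-out arrays. No slide or scan is given, so batches could not be examined. Gene symbols are as the array's table gives them and can be old. A few genes that these rules would name are not reported here.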

Additional observations from a re-analysis of the deposited data

Results flagged for a closer look

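No tested member probe had a tumor far from the other 3 of its group by Dixon's criterion, though the gaps of VP16LXRa replicate 5 were wide. That covers 24 group checks. Chance gives about 1 in 20 for independent checks, but genes on the same arrays are not independent. No share over all probes is given, so no excess can be read from the count that follows. Among other named genes of the lists, Isl1 included, 14 such tumors were found in 94 group checks. In VP16 replicate 1 they were Insl5 (8.40, others 11.03 to 11.32), Ffar2 (8.72, others 10.68 to 10.92), Aqp8 (9.17, others 13.00 to 13.20), Agr2 (6.78, others 8.43 to 8.74), Avil, an actin-binding protein of tuft cells (10.33, others 6.64 to 7.10), Isl1 (9.92, others 6.30 to 6.53), Wif1 (9.79, others 4.52 to 4.81) and Sp5 (8.92, others 4.45 to 4.94). In VP16LXRa replicate 5 they were Cartpt (4.97, others 5.87 to 6.05), Aqp8 (4.54, others 12.41 to 12.78), Krt20 (5.36, others 12.48 to 13.29), Clca3 (4.72, others 15.33 to 15.47) and Agr2 (5.74, others 8.42 to 8.81). In VP16 replicate 3 Guca2b was high (10.60, others 9.89 to 9.92). All values are log2 intensities.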

How the results depend on the processing

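No member passed limma's test under any alternative (smallest adjusted p = 0.971). The median member difference of -0.60 stayed negative in all of them, from -0.98 to -0.17 with 1 array left out. It moved by less than the spread between tumors (SD 0.90 of the per-array median within groups). That spread is larger than the difference itself, so such a move says little about stability. The median difference was -0.18 without background correction and -0.43 with the authors' processed values. The count of 9 lower members was 6 to 9 with 1 array left out. It was 1 when detection on all 8 arrays was asked, since only Pyy passed that filter, and 10 of 10 with no filter, Neurod1 included at -0.19. Tac1, Scgn, Insm1, Chgb, Pyy and Cck kept a negative sign under every alternative. Chga, Gcg and Sst reached 0.11, 0.47 and 0.70 without VP16LXRa replicate 5. Sst was also positive without VP16 replicate 2 (0.14) and without VP16 replicate 3 (0.41). Over all probes 1 passed, and 0 did without background correction, with the authors' values, with an offset of 50, with detection on all 8 arrays or with no filter; it was 0 to 2 with 1 array left out and 4 without both arrays that stood apart. No paired analysis was possible because replicates are numbered 1 to 4 in one group and 5 to 8 in the other. Signal over background limits Cck, Scgn and Insm1, which lie near the level of undetected probes in several tumors.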

Other observations

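Receptors for the member hormones were mostly dim. Of 18 such genes 5 were tested, none passed, and 10 were detected on no array, among them Glp1r, Sstr2, Cckar and Cckbr. Tacr1, the substance P receptor, differed by 0.36 (SE 0.22), Npy1r, a receptor of peptide YY, by -0.28 (SE 0.34), and Glp2r, the receptor of glucagon-like peptide 2, by 0.08 (SE 0.31). Among 15 genes of secretory fate and Notch signalling 10 were tested, with a median difference of -0.04 and none passed. Dll1, a Notch ligand of secretory progenitors, had the smallest p, with values of 5.72, 5.43, 5.73 and 6.18 in VP16 and 4.90, 5.52, 5.72 and 4.84 in VP16LXRa tumors (log2 difference -0.52, SE 0.26; limma adjusted p = 0.9999). Of the tuft cell markers, another rare secretory type, Avil stood at 10.33 in VP16 replicate 1 and 10.44 in VP16LXRa replicate 5 against 6.64 to 7.84 elsewhere, but Dclk1 was lowest in these same tumors, at 5.68 and 5.57. All 3 tested were higher in VP16LXRa tumors and none passed, with Alox5ap at 0.50 (SE 0.22), Avil at 0.38 (SE 1.00) and Dclk1 at 0.19 (SE 0.37). The 8 tested smooth muscle markers had a median difference of 0.10, 0.88 without VP16LXRa replicate 5 and 0.53 without both arrays that stood apart. They included Cnn1 (-0.19, SE 0.48), Smtn (0.25, SE 0.76) and Actg2 (0.27, SE 1.02). The 2 tested neutrophil markers were Mmp9 (0.89, SE 1.22) and Csf3r (0.07, SE 0.54). Their median of 0.48 became -0.24 without VP16LXRa replicate 5 and 0.47 without both arrays that stood apart.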
